A study of Mus musculus with 9 samples.

Results

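The hippocampus of mice on a methionine-rich diet was compared with that of mice on a standard diet across protein-coding genes. The members are the protein-coding genes whose mean level over the 6 libraries compared was at least 1 FPKM, that is, fragments scaled to the length of the gene and to the size of the library. This rule took 11763 genes of the 22046 protein-coding genes and of the 54532 genes of every kind that the table lists. It uses the level of a gene over both groups and not the difference between them. Of the members, 112 reached 1 FPKM in the mean of the diet group alone and 114 in that of the standard group alone.

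Con and HMD are 2 groups of 3 samples each, out of 9 samples in the series, and the other 3 samples, which also received betaine, were left out here. All were C57BL/6 mice, 6 to 8 weeks old when bought and male by the labels, kept in pairs. Con mice, labelled WT, ate the standard diet, and HMD mice, labelled by their high-methionine feeding, ate a diet rich in methionine for 8 weeks, after which the hippocampus was taken after cervical dislocation. The diet serves as a model of raised homocysteine and needs no genetic change. The labels do not say whether each sample is 1 mouse or a pool, so p-values measure the spread between these samples, which may in part be technical.

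Methionine is an essential amino acid. It is activated to S-adenosylmethionine, the methyl donor for DNA, histones and lipids, and what remains after the methyl group is given away is homocysteine, which is methylated back to methionine or passed on to cysteine. The hippocampus forms and retrieves memories, and its neurons switch on immediate early genes such as Fos and Arc within minutes of firing. It is also rich in receptors for glucocorticoids, the stress hormones of the adrenal gland, which in mice is mainly corticosterone. The hormone-bound glucocorticoid receptor enters the nucleus, binds DNA and activates genes such as Fkbp5, Sgk1 and Tsc22d3.

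The 6 libraries held 16449388 to 18566712 reads assigned to genes. Pearson's r of log2(FPKM + 1) across the members was 0.959 to 0.980 between Con libraries, 0.977 to 0.987 between HMD libraries and 0.953 to 0.988 between the groups. Genes are not independent replicates, so these values carry no test. Con 3 stood farthest from the others on the first principal component, which held 48.1% of the variance and on which the groups overlapped. All 20 markers of hippocampal subfields were measured, at 1.25 to 61.1 FPKM over the libraries. The Y-linked genes Ddx3y, Eif2s3y, Kdm5d and Uty were at 1.097 to 20.7 FPKM in the 6 libraries and Xist, the RNA of the inactive X chromosome, at 0.0242 FPKM or less, which goes with the label male, while the study's methods describe female mice. Con 2 held transcripts of the liver, with Alb (albumin) at 62.8 FPKM against 0.48 to 4.29 in the other 5 libraries. HMD 1 held more of the thalamus and habenula markers than any other library, with values given beside those genes.

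**Figure D1:**
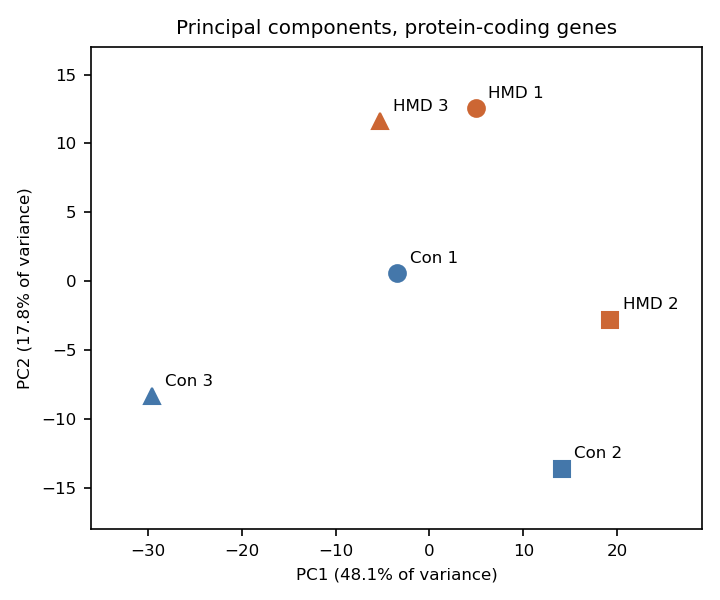
First and second principal components (PC1 and PC2, in arbitrary units of log2(FPKM + 1)) of the 6 libraries over the 11763 protein-coding genes, blue for Con and orange for HMD, with the marker shape giving the replicate. Con 3 lies at the far left, and the groups overlap along PC1 (48.1% of the variance) while all 3 Con libraries lie below HMD 1 and HMD 3 along PC2 (17.83%).

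No single gene passed the test after adjustment. Of the 12 genes with the smallest p among those higher in HMD, 6 are known targets of glucocorticoid hormones, and 1 of the 12 among those lower, Npas4, is an immediate early gene. The comparison asks which genes respond to the diet. It was made with limma on log2(FPKM + 1), with Benjamini-Hochberg adjustment over all 12989 genes of any biotype that reached the filter. At an adjusted p under 0.05 there were 0 members, beside 0.0% of all genes tested, and the smallest adjusted p of a member was 0.186. An unadjusted p under 0.05 was found for 476 members (4.05%), of which 252 were higher and 224 lower in HMD, beside 4.56% of all genes tested in either direction, 2.36% higher and 2.19% lower. Rescaled to TPM, so that every library has the same total, the split was 327 higher and 174 lower. With limma voom on the reads recovered from the FPKM values 0 members passed adjustment and 482 had an unadjusted p under 0.05. The 3 values of one group all lay above the 3 of the other in 1096 members (9.32%, 555 higher and 541 lower in HMD), beside 9.37% of all genes tested, 4.71% higher and 4.66% lower. These shares of the members lie near those of all genes tested. The other 1226 genes tested, of biotypes such as antisense RNA and pseudogene, had 9.46% at an unadjusted p under 0.05.

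**Figure D2:**
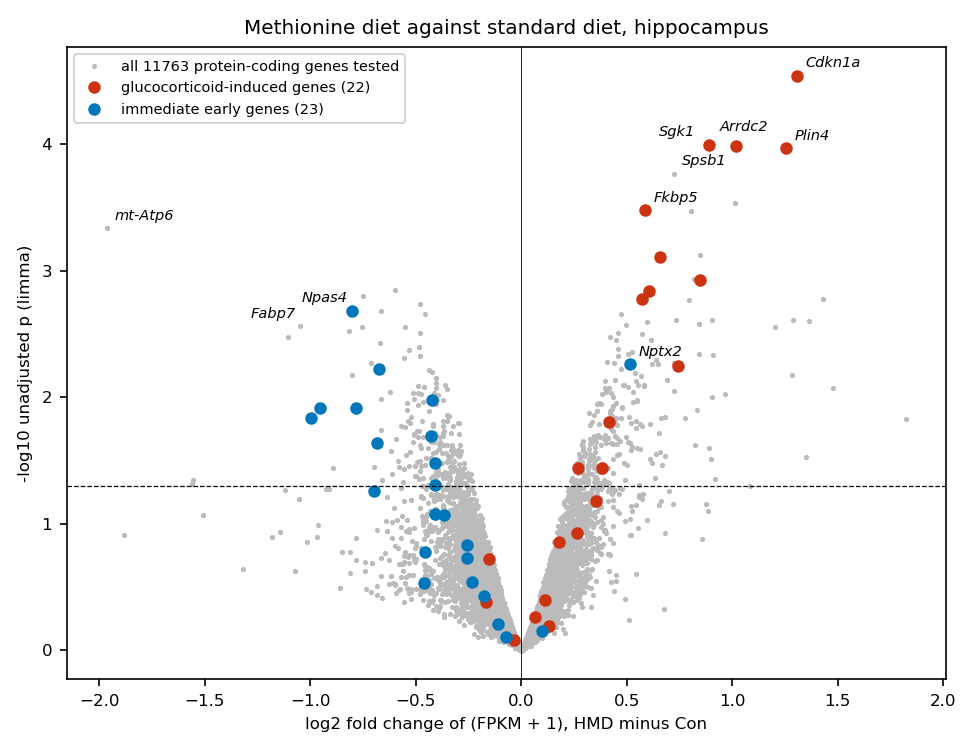
Log2 fold change of (FPKM + 1), HMD minus Con, against -log10 of the unadjusted limma p for 11763 protein-coding genes (grey), with 22 glucocorticoid-induced genes in red and 23 immediate early genes in blue. The dashed line marks an unadjusted p of 0.05. Of the red points 13 lie above it on the right, and of the blue points 10 lie above it on the left and 1 on the right.

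Most glucocorticoid-induced genes had higher values in HMD. All 22 genes of the list were measured, 13 were higher at an unadjusted p under 0.05 by limma and 0 lower, and in 14 every HMD library lay above every Con library. The shares of all genes tested were 2.36% higher and 2.19% lower at that p, and 4.71% with every HMD library above every Con library. The median log2 fold change of the 22 was 0.40, beside -0.0028 over all members. The list was drawn up with earlier results of these data known, so its count is not independent evidence of its direction, and 2 of the 13 reached the filter through the HMD mean alone. Without HMD 1 the count was 10 of 22, without Con 2 it was 12, and without Con 3 it was 14. The summed level of the list was 272, 266 and 289.6 FPKM in Con 1 to 3 and 365, 339 and 366 FPKM in HMD 1 to 3, so the groups did not overlap.

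Cdkn1a, the gene of a cyclin-dependent kinase inhibitor that halts the cell cycle and a target of p53 as well as of the glucocorticoid receptor, had the smallest p of all members. Its level was 2.92, 2.96 and 3.12 FPKM in Con 1 to 3 and 11.2, 7.45 and 8.47 FPKM in HMD 1 to 3. The Con libraries were nearly alike, and even the lowest HMD library lay far above them. On the log2(FPKM + 1) scale HMD exceeded Con by 1.31 (0.147 SE, adjusted p 0.186 by limma). An unnamed gene model overlaps it on the opposite strand. Sgk1, a kinase that raises the surface level of ion channels and transporters, had 25.2, 29.3 and 23.95 FPKM in Con and 53.4, 46.7 and 47.4 FPKM in HMD, with no overlap and a log2 fold change of 0.89 (limma adjusted p 0.218). Arrdc2, an alpha-arrestin that takes part in the sorting of membrane proteins, was at 2.998, 2.61 and 3.94 FPKM in Con and 7.64, 6.95 and 7.64 FPKM in HMD.

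Plin4 (ENSMUSG00000002831, chromosome 17, 56100591 to 56109803, - strand, on GRCm38 like the positions that follow), a coat protein of lipid droplets, had the largest ratio of group means in the list. Its values were 0.899, 0.797 and 1.33 FPKM in Con against 4.57, 2.96 and 3.89 FPKM in HMD, a ratio of 3.78 and a log2 fold change of 1.26 (SE 0.171, limma adjusted p 0.218). It rested on 77 to 491 reads per library and overlaps Hdgfl2 on the other strand. Fkbp5 (ENSMUSG00000024222, chromosome 17, 28399094 to 28517527, - strand) encodes a co-chaperone of the glucocorticoid receptor that lowers its affinity for the hormone. It had the tightest replicates of these genes, with 6.84, 7.24 and 7.44 FPKM in Con and 11.4, 11.1 and 11.3 FPKM in HMD, or 7.17 ± 0.306 against 11.3 ± 0.175 (SD, n = 3). Txnip (ENSMUSG00000038393, chromosome 3, 96557957 to 96561883, + strand), which inhibits thioredoxin and curbs glucose uptake, stood at 9.84, 9.28 and 11.4 FPKM in Con and 17.9, 16.9 and 14.9 FPKM in HMD. Each of the 3 had all HMD libraries above all Con libraries. Their limma adjusted p was 0.218 for Plin4, 0.339 for Fkbp5 and 0.523 for Txnip.

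**Figure D3:**
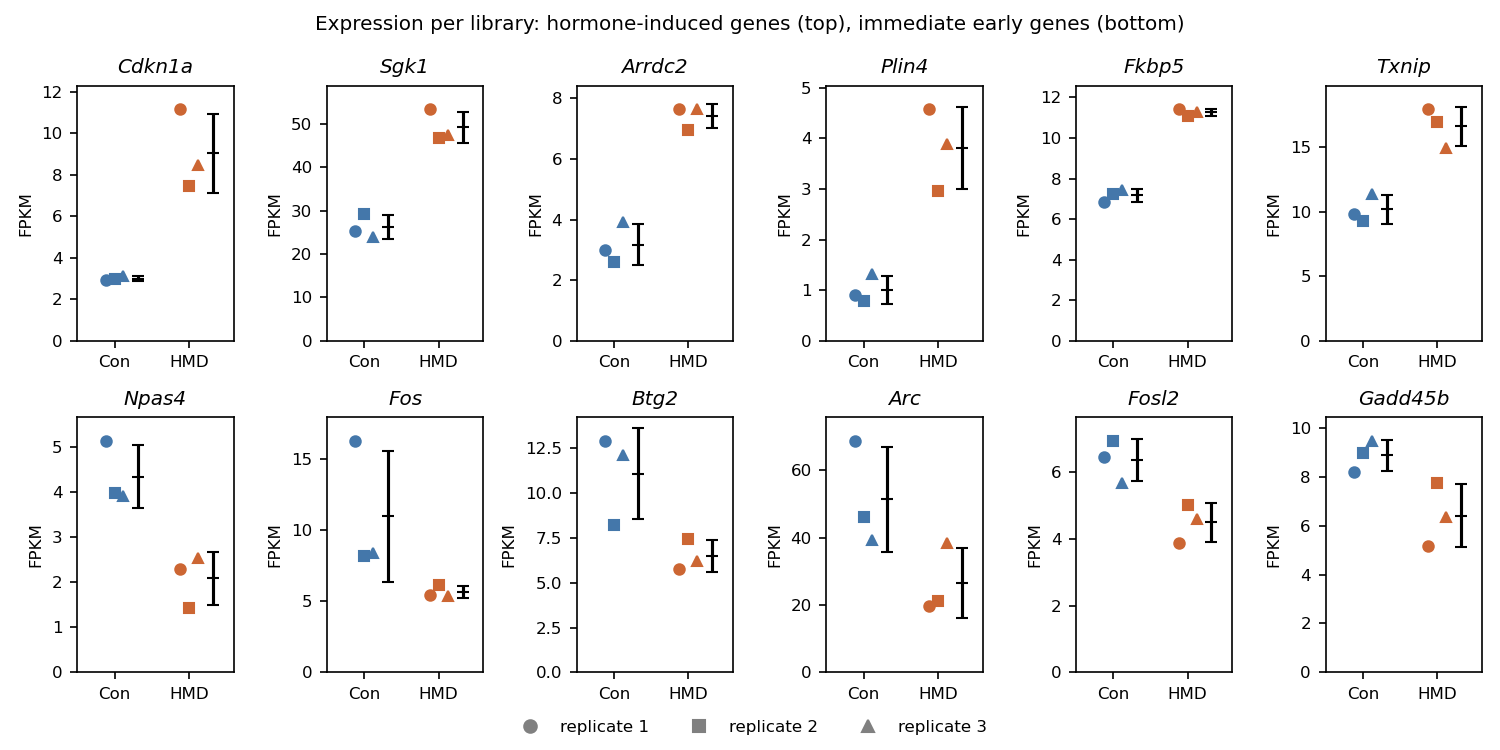
Level in FPKM of 6 glucocorticoid-induced genes (top) and 6 immediate early genes (bottom) in each Con (blue) and HMD (orange) library, with the marker shape giving the replicate and the black bar the mean and SD of 3. In the top row every HMD library lies above every Con library, as for Sgk1 at 46.7 to 53.4 against 23.9 to 29.3 FPKM, and in the bottom row every HMD library lies below every Con library, by little for Arc (38.5 against 39.3 FPKM). The genes were picked with their values known, so this separation is no finding about the lists. It held for 14 of 22 glucocorticoid-induced and 9 of 23 immediate early genes.

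The remaining 7 of the 13 cover transcription, signalling and metabolism. Hif3a, a hypoxia-inducible factor that dampens the hypoxic response, was at 1.38, 2.09 and 1.21 FPKM in Con and 4.24, 3.44 and 3.08 FPKM in HMD. Nfkbia, the inhibitor that holds NF-kappa-B in the cytoplasm, was at 14.6, 13.2 and 15.1 FPKM against 24.00, 19.2 and 23.9 FPKM. Sult1a1, a sulfotransferase, had a log2 fold change of 0.57 and Angptl4, a secreted inhibitor of lipoprotein lipase, one of 0.74. Smaller were those of Tsc22d3 (0.42), the anti-inflammatory leucine zipper protein also called GILZ, Map3k6 (0.38) and the zinc finger repressor Zbtb16 (0.27). In all 7 every HMD library lay above every Con library. Their unadjusted limma p ran from 0.00117 for Hif3a to 0.0364 for Map3k6, and the smallest limma adjusted p among them was 0.636.

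The other 9 members of the list did not reach an unadjusted p of 0.05 by limma. Mfsd2a, the carrier of docosahexaenoic acid across the blood-brain barrier, was at 12.6, 12.99 and 8.88 FPKM in Con and 13.4, 14.2 and 16.97 FPKM in HMD, without overlap (p 0.0655). Dusp1, a phosphatase of MAP kinases, was the only member with every HMD library below every Con library, at 12.4, 10.3 and 11.2 FPKM in Con and 10.1, 10.1 and 9.93 FPKM in HMD. Per1, a clock gene with a well-known hormone response element, had values of 17.3, 13.5 and 11.2 FPKM and 13.5, 12.2 and 14.7 FPKM, which overlapped. The log2 fold change of Klf9, Pdk4, Cebpd, Errfi1, Ddit4 and Gpd1 lay between -0.17 (Gpd1) and 0.27 (Pdk4), and their groups overlapped too. Ddit4 and Gpd1 were highest in Con 3, at 44.00 and 32.7 FPKM.

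In a fit of all 9 samples of the later table, in which the 3 betaine libraries add to the estimate of the spread, 7 members had a limma adjusted p under 0.05 for HMD against Con. They were Cdkn1a, Sgk1, Plin4, Spsb1, Fkbp5, Etnppl and Arrdc2, all higher in HMD, with adjusted p between 0.0219 and 0.0481. Of these 7, 5 are on the list of glucocorticoid-induced genes. That list was drawn up with earlier results of these data known, and the Con and HMD samples are the same, so this overlap is not independent evidence. The fit tested 11915 protein-coding genes. The later table fitted without the betaine libraries called 0.

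Sequence upstream of 6 of these genes (Cdkn1a, Sgk1, Arrdc2, Plin4, Fkbp5 and Txnip) was read from RefSeq promoter windows on GRCm38.p6, taking the 250 bases before each annotated start, 12 windows in all. They were searched on both strands for TGTTCT, a core motif of glucocorticoid response elements, and for the palindrome GNACANNNTGTNC, in which motifs of this kind face each other across 3 bases. Of the 12 windows 6 are starts of Sgk1, and the start used for Fkbp5 lies 31378 bases from that of the gene span given above. The motif was present in 3 of the 12 windows, all of Sgk1, and the palindrome in 2, of Sgk1 and of Txnip. Among all 32851 promoter windows, 16.1% held the motif and 0.387% the palindrome. The 6 genes were taken from the list of hormone targets and for their small p. Setting their windows beside these shares is therefore no test of the list. The windows of Cdkn1a, Arrdc2, Plin4 and Fkbp5 held neither, which says only that these letters are not in these 250 bases. The windows with the palindrome are shown because they belong to genes that were higher in HMD, with the palindrome in capitals and the last base lying just before the start. Sgk1, chr10:21993640-21993889, + strand, is an internal start of the gene, its palindrome begins 188 bases before that start, and 2 of the 3 TGTTCT matches in this window overlap it. Txnip, chr3:96557707-96557956, + strand, has its palindrome beginning 172 bases before the start and no TGTTCT match.
Sgk1: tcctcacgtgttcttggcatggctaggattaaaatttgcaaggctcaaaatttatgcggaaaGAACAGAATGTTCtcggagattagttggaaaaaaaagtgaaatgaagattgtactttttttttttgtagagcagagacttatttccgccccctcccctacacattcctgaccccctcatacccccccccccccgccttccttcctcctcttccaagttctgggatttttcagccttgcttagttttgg
Txnip: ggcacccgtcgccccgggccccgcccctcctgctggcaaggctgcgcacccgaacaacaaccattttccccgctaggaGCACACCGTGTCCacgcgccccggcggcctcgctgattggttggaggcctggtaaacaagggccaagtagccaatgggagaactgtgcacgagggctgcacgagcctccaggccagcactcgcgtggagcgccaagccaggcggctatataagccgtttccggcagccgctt

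Genes outside the list were also among the 12 with the smallest p and higher values in HMD. Spsb1 (ENSMUSG00000039911, chromosome 4, 149896283 to 149955043, - strand), an adaptor of a ubiquitin ligase, was at 4.43, 4.23 and 4.82 FPKM in Con and 7.87, 7.603 and 8.75 FPKM in HMD. The difference was 0.72 on the log2 scale, with an SE of 0.105 and an adjusted p of 0.277 by limma. Etnppl, an astrocyte enzyme that breaks down phosphoethanolamine, was at 4.85, 5.54 and 4.58 FPKM against 11.1, 8.36 and 9.11 FPKM. In both the highest Con library lay below the lowest HMD library. Drd2, a dopamine receptor, was at 0.757, 0.727 and 0.892 FPKM in Con and 1.97, 3.19 and 2.78 FPKM in HMD, on 31 to 131 reads per library, and reached the filter through HMD alone. Cacng5, an auxiliary subunit of AMPA receptors that marks CA2 and CA3 in the marker list, was at 3.02, 4.54 and 2.87 FPKM and 7.24, 6.42 and 7.16 FPKM. Sac3d1, a protein of the spindle, had a log2 fold change of 0.65 and Zic2, a zinc finger transcription factor, one of 0.82. All 6 had groups without overlap, and their limma adjusted p was 0.277 to 0.636. Zic2 is also expressed in the thalamus and Drd2 in the striatum, and markers of both regions are given with their lists.

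Most immediate early genes had lower values in HMD. Of the 23 genes of this list, all measured, 10 were lower in HMD and 1 higher at an unadjusted p under 0.05 by limma, and the means of 21 were lower. The shares of all genes tested at that p were 2.19% lower and 2.36% higher. Of the 10, 1 (Egr2) reached the filter through the Con mean alone. The median log2 fold change was -0.41. Every HMD library lay below every Con library in 9 of the 23, beside 4.66% of all genes tested. This list too was drawn up with earlier results of these data known, so its counts are not independent evidence of its direction. The count of 10 was 5 without HMD 1, 7 without Con 1, 9 without Con 2 and 10 without Con 3. The summed level of the list was 412, 333 and 271 FPKM in Con 1 to 3 and 204, 252 and 294 FPKM in HMD 1 to 3, so the groups overlapped in the sum, with Con 1 highest and HMD 1 lowest.

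Npas4, a transcription factor of neurons switched on by calcium entry, had the smallest p of the list. It was at 5.13, 3.98 and 3.899 FPKM in Con and 2.28, 1.42 and 2.54 FPKM in HMD, which gave -0.80 on the log2 scale (0.175 SE, limma adjusted p 0.726). Btg2, an antiproliferative gene induced by activity, was at 12.9, 8.19 and 12.1 FPKM against 5.77, 7.46 and 6.23 FPKM. The next genes were chosen after their values were seen. Fos, the classic marker of firing neurons, was at 16.3, 8.18 and 8.43 FPKM in Con and 5.47, 6.14 and 5.36 FPKM in HMD. Con 1 was far above the other Con libraries, and the 3 HMD libraries lay close together below all of them. Arc, which sits at the synapse and drives the uptake of AMPA receptors, was at 68.9, 46.1 and 39.3 FPKM and 19.7, 21.3 and 38.5 FPKM, so that HMD 3 came near the lowest Con library. Egr2, a zinc finger transcription factor, was low in all, at 4.05, 2.15 and 1.15 FPKM in Con and 0.269, 0.73 and 0.96 FPKM in HMD. Fosl2, Gadd45b, Nr4a1, Nr4a2 and Bdnf, the last a neurotrophin of synaptic plasticity, made up the rest of the 10, with log2 fold changes from -0.68 (Nr4a1) to -0.41 (Nr4a2).

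Only Nptx2 and Egr3 had a higher mean in HMD. Nptx2, a secreted pentraxin that clusters AMPA receptors, was higher in every HMD library, at 9.75, 11.1 and 8.42 FPKM in Con and 16.2, 13.3 and 13.6 FPKM in HMD (log2 fold change 0.52, unadjusted limma p 0.0055). Egr3 was at 35.5, 38.1 and 21.1 FPKM and 24.97, 38.6 and 36.8 FPKM, and Dusp5 at 14.7, 10.01 and 7.72 FPKM and 7.49, 11.2 and 11.6 FPKM, in both cases with overlap. Egr1, Egr4 and Fosb had lower means in HMD but also overlapped, with log2 fold changes of -0.46, -0.46 and -0.18.

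**Figure D4:**
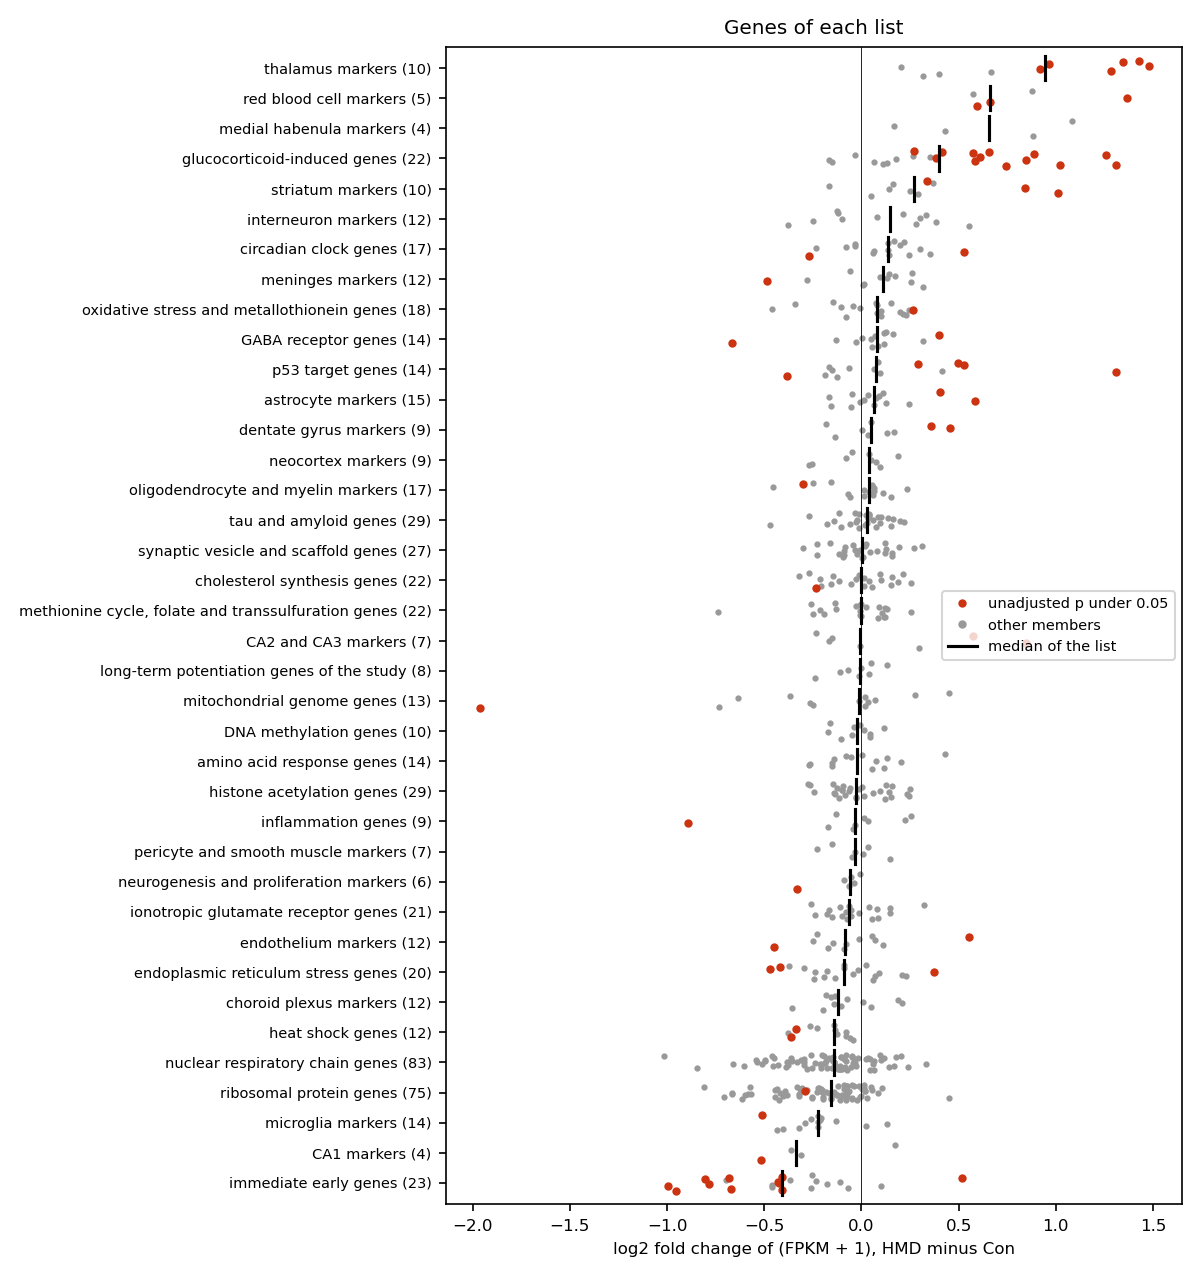
Log2 fold change of (FPKM + 1), HMD minus Con, of each measured gene of 38 lists, ordered by the median (black bar), with the number of measured genes in brackets and genes with an unadjusted limma p under 0.05 in red. Thalamus markers lie highest (median 0.94), followed by red blood cell markers (0.66), medial habenula markers (0.66) and glucocorticoid-induced genes (0.40). Immediate early genes lie lowest (-0.41), while most lists have medians close to 0.

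Among the 12 members with the smallest p and lower values in HMD, mt-Atp6, a subunit of ATP synthase encoded by the mitochondrial genome, had the largest difference. It was at 271, 735 and 532 FPKM in Con and 126, 133 and 104 FPKM in HMD, or -1.96 on the log2 scale (0.333 SE, limma adjusted p 0.424). The Con libraries lay far apart, while the HMD libraries lay close together below all of them. The gene shares bases with mt-Atp8 and mt-Co3 on the same strand, so how reads in the overlaps were assigned bears on its value. Its neighbour mt-Co3 was at 115, 147 and 159.6 FPKM and 127, 111 and 109 FPKM. The other 12 protein-coding genes of the mitochondrial genome had 0 at an unadjusted p under 0.05 in either direction, and the abundant mt-Co1 was at 16415, 18869 and 14221 FPKM in Con and 17746, 15731 and 16353 FPKM in HMD.

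Gpr17, a receptor of oligodendrocyte precursors that are about to mature, was at 9.19, 8.01 and 10.4 FPKM in Con and 5.81, 5.25 and 6.07 FPKM in HMD (log2 fold change -0.60, limma adjusted p 0.718). Fabp7, the fatty acid binding protein of radial glia and astrocytes, was at 13.7, 12.5 and 23.7 FPKM and 8.27, 5.85 and 7.78 FPKM, with Con 3 highest. Wnt9a, a secreted Wnt ligand, was at 2.17, 2.75 and 3.02 FPKM and 0.938, 1.08 and 1.504 FPKM. In these 3 genes the groups did not overlap. Kcna4, a potassium channel subunit of axons, had a log2 fold change of -0.55, Mphosph10, a protein of ribosomal RNA processing, one of -0.48, and Rftn2, a protein of lipid rafts, one of -0.45. Tbc1d8b, an activator of Rab GTPases, was at 5.35, 6.43 and 5.18 FPKM and 3.66, 3.89 and 3.702 FPKM. Lst1, a gene of myeloid cells, rested on 4 to 18 reads per library and reached the filter through the Con mean alone. Tpm3-rs7 is a near copy of Tpm3, so that its reads may be shared with it. The uncharacterised 3110040N11Rik was at 6.31, 6.26 and 6.64 FPKM and 4.37, 2.37 and 3.65 FPKM. All of these had limma adjusted p of 0.718 to 0.744.

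Markers of the thalamus, medial habenula and striatum had higher median log2 fold changes than most lists, and those of the neocortex did not. Of the neocortex markers 9 were measured, with 0 at an unadjusted p under 0.05 by limma and a median log2 fold change of 0.039. Of 13 thalamus markers 10 were measured, with a median log2 fold change of 0.94. At an unadjusted p under 0.05 by limma 6 were higher in HMD, beside 2.36% of all genes tested, and 0 lower. Of those 6, 2 (Tcf7l2 and Synpo2) reached the filter through the HMD mean alone. The summed level of all 13 was 38.8, 47.1 and 46.3 FPKM in Con 1 to 3 and 149, 59.6 and 76.9 FPKM in HMD 1 to 3. HMD 1 held the most, and HMD 2 still lay above the highest Con library. Slc17a6, the vesicular glutamate transporter of the thalamus and other subcortical regions, was at 3.005, 5.26 and 3.68 FPKM in Con and 26.7, 7.25 and 10.1 FPKM in HMD. Tcf7l2, a transcription factor of thalamic neurons, was at 1.005, 1.06 and 0.52 FPKM and 10.7, 2.06 and 1.89 FPKM. Prkcd, a protein kinase C, was at 3.25, 3.902 and 5.48 FPKM and 20.2, 6.71 and 10.9 FPKM, and Zic1 at 2.97, 7.59 and 6.08 FPKM and 20.9, 12.5 and 14.96 FPKM. Rgs16, Ntng1 and Adarb1 overlapped between groups. Shox2, a thalamic transcription factor added after its values were seen, was at 0.0808, 0.018 and 0.0515 FPKM in Con against 8.36, 0.449 and 2.79 FPKM in HMD. Without HMD 1, 5 of 9 measured markers had an unadjusted p under 0.05 and the median was 0.43.

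The medial habenula, which lies on the thalamus, showed the same library in front. Its 7 markers summed to 7.84, 8.81 and 6.904 FPKM in Con and 33.2, 9.55 and 9.14 FPKM in HMD, with 4 of the 7 measured. Without HMD 1 only 3 were measured, with a median log2 fold change of -0.0032. Of 14 striatum markers 10 were measured and 3 were higher at an unadjusted p under 0.05 by limma, Drd2 as given, the only one that reached the filter through the HMD mean alone, Penk (preproenkephalin) at 9.53, 6.400 and 9.800 FPKM and 17.95, 11.95 and 18.8 FPKM, and Tac1 (the precursor of substance P) at 1.75, 2.39 and 2.46 FPKM and 2.69, 3.27 and 3.11 FPKM. Other defining genes of the striatum overlapped, with Drd1 at 1.14, 1.98 and 1.11 FPKM and 1.78, 1.49 and 2.57 FPKM and Ppp1r1b at 11.1, 11.6 and 19.7 FPKM and 13.2, 7.54 and 17.3 FPKM. Of all genes tested, 2.36% were higher in HMD at an unadjusted p under 0.05 by limma. The part of the thalamus, habenula and striatum in any result was not tested. With HMD 1 left out, 10 of the 22 glucocorticoid-induced genes had an unadjusted p under 0.05 by limma, and their median log2 fold change was 0.40 as before. That fit cannot separate the hormone list from the regions. The thalamus sums of HMD 2 (59.6 FPKM) and HMD 3 (76.9 FPKM) still lay above the highest of Con (47.1 FPKM).

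**Figure D5:**
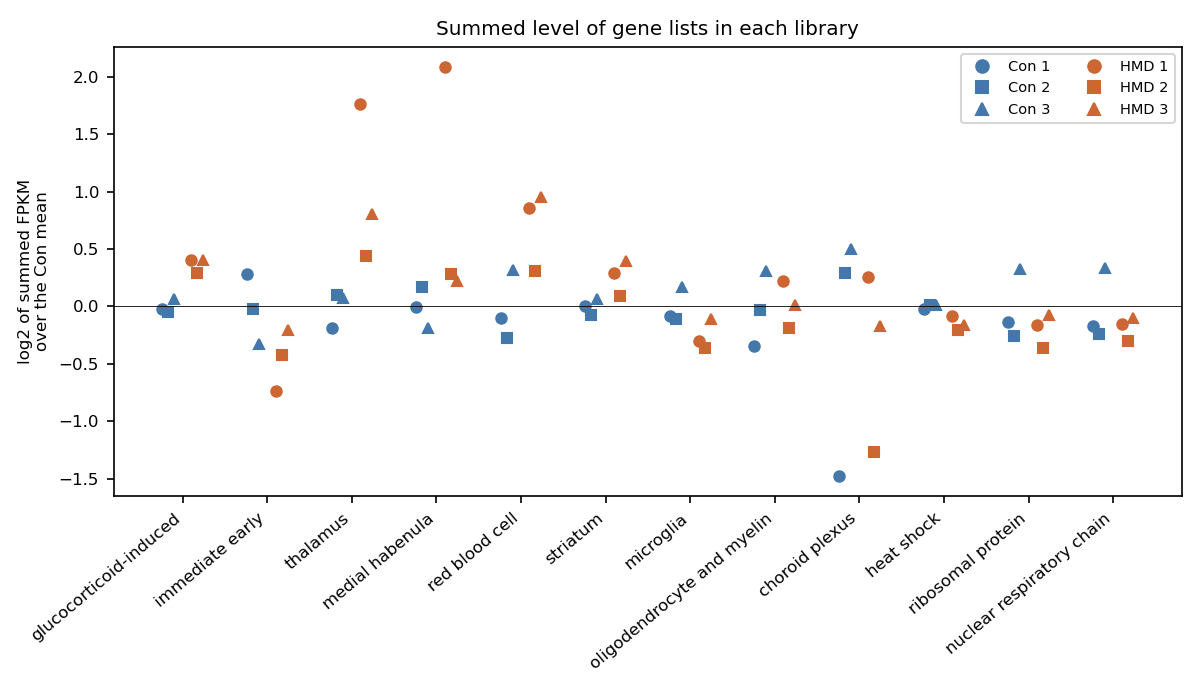
Log2 of the summed FPKM of 12 gene lists in each library over the mean of the 3 Con libraries, blue for Con and orange for HMD, with the marker shape giving the replicate. HMD 1 stands apart for the thalamus (149 FPKM) and medial habenula (33.2 FPKM) lists, Con 3 for ribosomal protein (7829 FPKM) and respiratory chain genes (6274 FPKM), and Con 1 and HMD 2 are low for the choroid plexus.

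Transcripts of red blood cells were higher in HMD. Of 6 red blood cell markers 5 were measured, with a median log2 fold change of 0.66. All 5 had a higher mean in HMD, 3 of them at an unadjusted p under 0.05 by limma, beside 2.36% of all genes tested. The sum of all 6 markers was 110.4, 98.0 and 147.5 FPKM in Con 1 to 3 and 215.1, 146.8 and 229.7 FPKM in HMD 1 to 3. HMD 2 lay just below Con 3. Hba-a2, an alpha globin, was at 13.97, 13.98 and 5.96 FPKM in Con and 36.2, 24.5 and 27.1 FPKM in HMD, and shares nearly all of its sequence with Hba-a1, which makes the split of reads between them uncertain. Alas2, the enzyme that starts haem synthesis in red blood cells, was at 1.09, 1.12 and 1.11 FPKM and 2.46, 1.78 and 2.34 FPKM. Of 6 neutrophil genes looked at after values were seen, S100a9 was at 1.54, 1.83 and 3.59 FPKM and 5.77, 10.3 and 5.28 FPKM, S100a8 at 1.54, 4.22 and 1.88 FPKM and 6.13, 6.88 and 3.32 FPKM, with overlap, and Ngp at 0.35, 0.293 and 0.604 FPKM and 1.28, 1.12 and 1.43 FPKM. Camp was at 0.212, 0.473 and 0.449 FPKM and 0.284, 0.409 and 0 FPKM, and it and the other two, Ly6g and Mpo, had at most 7 reads in any library and overlapped between groups. The amount of blood left in the tissue was not tested.

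Glial lists differed less. In tissue RNA fewer cells of a type and less RNA per cell cannot be told apart. Of 14 microglia markers 12 had a lower mean in HMD, 1 of them at an unadjusted p under 0.05, and the median log2 fold change was -0.22. That gene was Tyrobp, the signalling partner of Trem2, at 9.39, 7.79 and 12.4 FPKM in Con and 5.73, 6.51 and 7.42 FPKM in HMD. The microglia sum was 211, 206 and 251 FPKM against 182, 173 and 207 FPKM, so that HMD 3 lay just above Con 2. Of 15 astrocyte markers 2 were higher at an unadjusted p under 0.05 by limma, Gjb6, a gap junction protein, at 29.9, 36.6 and 23.9 FPKM and 47.95, 46.1 and 40.97 FPKM, and Vim, a filament protein, at 11.5, 12.9 and 10.1 FPKM and 15.9, 15.2 and 15.3 FPKM. Gfap, the filament of reactive astrocytes, was at 74.2, 65.5 and 82.2 FPKM and 79.99, 82.7 and 78.7 FPKM. Of 12 endothelium markers Slc2a1, the glucose transporter of the blood-brain barrier, was higher in HMD (32.2, 41.7 and 28.4 FPKM and 54.1, 47.97 and 47.8 FPKM) and Cldn5, a tight junction protein, lower (19.2, 15.4 and 21.1 FPKM and 11.2, 12.7 and 16.2 FPKM), each at an unadjusted p under 0.05 by limma. Oligodendrocyte and myelin markers had 1 of 17 below that p, Sox10, with a log2 fold change of -0.30. Choroid plexus markers summed to 882 to 3464 FPKM in Con and 1015 to 2925 FPKM in HMD, with 0 of 12 below that p.

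No gene of methionine handling reached an unadjusted p of 0.05. Of 26 genes of the methionine cycle, folate and transsulfuration 22 were measured, 0 had an unadjusted p under 0.05 by limma in either direction, and the median log2 fold change was -0.0043. The gene nearest to that p, named after its values were seen, was Mat2a, which makes S-adenosylmethionine outside the liver. It was at 30.9, 32.7 and 32.9 FPKM in Con and 39.9, 41.7 and 34.3 FPKM in HMD, without overlap. Its log2 fold change was 0.25 with a 95% interval of -0.01 to 0.52. Mat1a, the liver form of this enzyme, was at 0.324, 4.76 and 0.196 FPKM in Con and 0.031, 0.679 and 0.13 FPKM in HMD. Its high value was that of Con 2, the library that also held Alb, so the level of Mat1a there cannot be told apart from that of liver RNA. The amino acid response genes had 0 of 14 and DNA methylation genes 0 of 10 below that p. Dnmt1, the maintenance DNA methyltransferase, was at 5.37, 5.17 and 5.43 FPKM and 5.16, 4.12 and 5.45 FPKM, and Dnmt3a, which methylates DNA anew, at 3.69, 3.32 and 3.97 FPKM and 3.65, 4.17 and 3.57 FPKM.

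Enzymes and readers of histone acetylation had 0 of 29 at an unadjusted p under 0.05 by limma and a median log2 fold change of -0.03. A list of 8 genes of long-term potentiation, the lasting strengthening of synapses, had 0 as well. These genes were chosen by the study. The largest difference among them was that of Gria1, the GluA1 subunit of AMPA receptors, at 158, 142 and 169 FPKM in Con and 125, 142 and 131 FPKM in HMD, with a log2 fold change of -0.24 and a 95% interval of -0.51 to 0.04. Grin2a, Grin2b, Gria3, Slc1a1, Slc24a2, Ptk2b and Src had log2 fold changes from -0.11 (Grin2b) to 0.13 (Slc24a2), and each overlapped between groups. The interval of Grin2b was -0.53 to 0.30 and that of Slc1a1 -0.26 to 0.26, so differences beyond these bounds lay outside the 95% interval. Of 21 ionotropic glutamate receptor genes 0 had an unadjusted p under 0.05, and 0 of 27 synaptic vesicle and scaffold genes and 0 of 29 tau and amyloid genes.

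A few synaptic genes stood apart from their lists. Gabra2, a subunit of synaptic GABA-A receptors, was at 42.7, 41.8 and 26.2 FPKM in Con and 21.4, 24.98 and 21.00 FPKM in HMD, with Con 3 nearer to HMD than to Con 1 and Con 2 (log2 fold change -0.66, unadjusted limma p 0.0103). Gabrd, the delta subunit of extrasynaptic receptors, was at 6.67, 8.09 and 5.93 FPKM and 11.8, 8.11 and 8.45 FPKM. Among subfield markers Fibcd1, a gene of CA1 pyramidal neurons, was lower in each HMD library, at 40.01, 32.9 and 30.6 FPKM and 20.3, 24.8 and 26.4 FPKM. Prox1, the transcription factor of dentate granule cells, was higher in each, at 15.4, 15.8 and 11.1 FPKM and 16.7, 19.4 and 18.4 FPKM. Pcp4, a calmodulin regulator on the list of CA2 and CA3 markers, was at 15.9, 17.1 and 20.70 FPKM and 33.63, 20.67 and 28.17 FPKM, with HMD 2 just below Con 3. At an unadjusted p under 0.05 by limma, 1 of 4 CA1 markers was lower, and 2 of 9 dentate gyrus markers and 2 of 7 CA2 and CA3 markers (Cacng5 and Pcp4) were higher. The median log2 fold change of the CA2 and CA3 markers was -0.0085, and 4 of the 7 had a lower mean in HMD. Of 14 p53 target genes measured, 4, Cdkn1a among them, were higher and 1 lower at an unadjusted p under 0.05 by limma. The shares of all members were 2.14% higher and 1.9% lower. The means of 8 of the 14 were higher in HMD and those of 6 lower. Pmaip1 was at 0.647, 0.61 and 0.751 FPKM in Con and 1.36, 1.78 and 1.13 FPKM in HMD, and reached the filter through the HMD mean alone. Trp53inp1 was at 4.225, 5.49 and 4.46 FPKM and 8.504, 7.57 and 5.39 FPKM, with overlap. Mdm2 was at 10.2, 10.1 and 8.69 FPKM and 10.5, 9.65 and 10.2 FPKM, and Bax at 10.4, 8.91 and 12.4 FPKM and 7.17, 7.95 and 8.28 FPKM. Of 17 clock genes Cry1, a repressor of the clock, was higher (3.51, 3.94 and 4.34 FPKM and 6.53, 6.72 and 5.12 FPKM) and Arntl, its activator, lower (3.16, 3.66 and 3.71 FPKM and 2.67, 2.66 and 2.901 FPKM), and the hour at which tissue was taken is not given in the sources used here.

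Heat shock, ribosomal protein and respiratory chain genes had mostly lower means in HMD, by small amounts. All 12 heat shock genes had a lower mean in HMD, 2 at an unadjusted p under 0.05 by limma, with a median log2 fold change of -0.14. Dnajb1, a co-chaperone in protein folding, was at 15.2, 14.5 and 15.4 FPKM in Con and 11.8, 10.6 and 12.1 FPKM in HMD. The sum of the list was 826, 846 and 844 FPKM and 794, 727 and 749.8 FPKM, without overlap. Of 75 ribosomal protein genes 64 had a lower mean, 1 at an unadjusted p under 0.05, and of 83 nuclear genes of the respiratory chain 67 had a lower mean and 0 passed that p. Con 3 stood high in both sums, at 7829 FPKM against 5227 and 5701 in the other Con libraries for ribosomal proteins and at 6274 against 4198 and 4413 FPKM for the respiratory chain. Without Con 3 their median log2 fold changes were 0.0003 and 0.026, against -0.16 and -0.14 with it. Of 9 inflammation genes measured 1 had an unadjusted p under 0.05, Isg15, an interferon-induced ubiquitin-like protein, at 0.921, 2.06 and 2.63 FPKM in Con and 0.427, 0 and 1.34 FPKM in HMD, and it reached the filter through the Con mean alone. A further 12 genes of that list lay under the filter.

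The spread between the libraries sets what could be seen. The median SE of a log2 fold change was 0.14, and the 1% and 99% quantiles of the log2 fold changes of the members were -0.53 and 0.48. The 95% interval lay within 1 on the log2 scale for 96.5% of the members and within 0.5 for 64.2%. Only 17 members had an unadjusted p under 0.05 together with a log2 fold change beyond 1 in size, 12 higher and 5 lower in HMD, of which 4 are thalamus markers and 3 are on the list of glucocorticoid-induced genes. Of the 5 lower, 2 are the liver transcripts Mup20 and Mup3, which were under 1 FPKM in every library but Con 2. Among the 17, Drd2, Shox2 and Tcf7l2 reached the filter through the HMD mean alone. Srp54b, Mup20 and Mup3 reached it through the Con mean alone. The share of members at an unadjusted p under 0.05 was 5.34% at 1 to 2 FPKM, 0.905% (4 of 442 genes) at 50 to 100 FPKM and 2.11% at 100 FPKM and over. The median coefficient of variation in Con was 18.9%, 13.2% and 13.1% in these classes, in the same order. Their median SE was 0.155, 0.141 and 0.143.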

How the data were processed

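Total RNA of mouse hippocampus was sequenced after depletion of ribosomal RNA, as stranded paired-end libraries. Reads were mapped by the authors with HISAT2 and assigned to genes by featureCounts, for which the submitters' processing notes give versions 2.1.0 and 1.5.0-p3 and the build mm10, while the study's methods give other versions. No source used here says if reads were counted by strand, so overlapping and antisense genes are uncertain. The authors deposited FPKM values per gene, with the length of the gene in bases (used as given) and coordinates on GRCm38.

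Multiplying each FPKM by gene length and by a library size fitted to make low values whole gave whole reads for 100% of the values. The tolerance was 0.02 of a read, or a small fixed share of the count where that was larger. The depth recovered in this way was 16449388 to 18566712 reads per library. The fitted library size was 0.967 (Con 2) to 1.053 (Con 3) times that sum of reads. At this depth 3 reads are at most 1.82e-05% of a library, which covers counting error only. Replicate pairs differed by more than sampling noise (chi-square per degree of freedom 13.1 to 46.0), so no samples were merged.

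The groups came from the sample titles. The columns read as Con carry the prefix COL, a match inferred because the other prefix names HMD. The tools named in the study need counts, so limma 3.58.1 (R 4.3.3) was fitted, using empirical Bayes moderation with a trend on intensity, to log2(FPKM + 1) of the 6 libraries. Genes with a mean of at least 1 FPKM were tested, and two-sided p-values were adjusted by Benjamini-Hochberg over all 12989. A fold change on this scale understates that of genes with low values. SE is the moderated standard error, SD the standard deviation over 3 samples, and a bare SE or interval comes from the same fit. The fit was also run on simulated data with known fold changes. The simulation gave every gene the same dispersion and no structure between libraries, so it does not show the power of the fit on these data.

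The members and the 39 gene lists were chosen with earlier results of these data known. Genes named are the 12 of smallest p on each side, up to 3 of each list with an unadjusted p under 0.05, and all measured thalamus, striatum, glucocorticoid-induced and sex-linked genes. The values of 1 striatum marker are not reported here. Any other gene named was chosen after its values were seen. The alternatives used a pseudocount of 0.1, a filter at 5 FPKM or none, TPM, quantile and median ratio scaling, no trend, protein-coding genes alone, voom on recovered reads, the later table with and without the betaine libraries, the replicate number as a block, and leaving out each library.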

Additional observations from a re-analysis of the deposited data

How the results depend on the processing

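Under 12 alternative settings and 6 fits that each left out a library, 0 protein-coding genes had a limma adjusted p under 0.05, except that the fit of all 3 groups of the later table gave 7. The count at an unadjusted p under 0.05, 476 in the report, was 716 without a filter on low values, 234 with a filter at 5 FPKM, 843 in the fit of 3 groups, and 284 (without HMD 1) to 869 (without Con 2) when a library was left out. Fewer or more genes were tested under the filters (7051 and 17709, against 11763), and for the other settings the cause was not tested. With the replicate block the count was 845 and the smallest adjusted p 0.385. The deviations of same-numbered libraries from their group means correlated at -0.135, 0.428 and 0.407 across protein-coding genes, for replicates 1, 2 and 3. Whether same-numbered libraries share a factor was not tested, and the main fit does not use the numbers. The glucocorticoid-induced genes at an unadjusted p under 0.05 by limma numbered 13 with and without the block. Genes without overlap between groups, 1096 in the report, numbered 1653 without a filter, 576 with a filter at 5 FPKM, and 1750 to 3081 without a library, where smaller groups overlap less often by construction.

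Medians of gene lists (log2 fold change) that moved by more than the spread between libraries were those of glucocorticoid-induced genes (0.40) at 0.53 with a pseudocount of 0.1 and 0.53 with voom, red blood cell markers (0.66) at 0.91 and 0.96, and striatum markers (0.27) at 0.38 and 0.39, and 0.095 with a filter at 5 FPKM. With that filter inflammation genes were at 0.24, neurogenesis markers at -0.21 and DNA methylation genes at -0.0501, the last also at -0.047 with voom. Leaving out each library gave 0.34 to 0.49 for glucocorticoid-induced genes, 0.43 to 1.20 for thalamus, -0.0032 to 1.00 for medial habenula, 0.51 to 0.94 for red blood cell, -0.0087 to 0.10 for astrocyte, -0.15 to 0.11 for neocortex, -0.034 to 0.16 for dentate gyrus, -0.24 to 0.033 for neurogenesis and 0.011 to 0.13 for sex-linked markers. The ranges were 0.014 to 0.16 for p53 targets, -0.18 to -0.12 for heat shock, -0.037 to 0.049 for the methionine cycle, -0.052 to 0.036 for amino acid response and -0.081 to 0.021 for histone acetylation genes.

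Among single genes the sign turned only when a library was left out, in 10 genes that lay far from the threshold. The log2 fold change then ran from -0.085 to 0.47 for Ddit4, -0.32 to 0.041 for Gpd1, -0.18 to 0.12 for Per1, -0.11 to 0.51 for Rgs16, -0.036 to 0.14 for Adcy5, -0.41 to 0.14 for Ppp1r1b, -0.047 to 0.27 for Rgs9, -0.095 to 0.087 for Eif2s3y, -0.021 to 0.11 for Kdm5d and -0.075 to 0.20 for Uty. In all, 1651 of the single values kept their direction and side of the threshold, 16 turned and 7 passed it. Intervals were wider at 1 to 2 FPKM, with a median SE of 0.155, against 0.134 at 5 to 10 FPKM.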

Other observations

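Genes of endoplasmic reticulum stress were mixed. Of 20 measured, 1 was higher and 2 were lower in HMD at an unadjusted p under 0.05 by limma. Herpud1, a protein of the degradation of misfolded proteins, was at 21.9, 20.4 and 17.9 FPKM in Con and 28.6, 23.02 and 27.3 FPKM in HMD, without overlap. Pdia6, a disulfide isomerase, was at 17.8, 19.7 and 24.7 FPKM and 14.8, 14.2 and 16.4 FPKM, and Manf, a secreted protein induced by such stress, at 6.53, 7.21 and 11.6 FPKM and 5.804, 4.87 and 6.304 FPKM, both lower in every HMD library and highest in Con 3. Mt1, a metallothionein that binds zinc and copper, was at 199, 212 and 193 FPKM and 262, 236 and 229 FPKM, the 1 of 18 genes of oxidative stress and metal binding at an unadjusted p under 0.05. Of 22 cholesterol synthesis genes measured, Cyp51, a demethylase of the sterol pathway, was the 1 at that p, at 16.6, 16.6 and 16.03 FPKM and 13.7, 14.4 and 13.2 FPKM. Dcn, a matrix protein of the meninges, was at 13.3, 10.7 and 10.4 FPKM and 9.94, 7.201 and 6.79 FPKM, 1 of 12 meninges markers measured. Ccnd2, a cyclin, was at 12.1, 9.77 and 10.5 FPKM and 8.18, 9.19 and 7.65 FPKM, 1 of 6 neurogenesis and proliferation markers measured.

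The liver transcripts of Con 2 were looked at after their values were seen. Mup20 was at 0.808, 9.14 and 0.551 FPKM in Con and 0.116, 0 and 0 FPKM in HMD, Mup3 at 0.852, 10.4 and 0.798 FPKM and 0.0504, 0.406 and 0 FPKM, and Ahsg (fetuin) at 0.366, 7.62 and 0.543 FPKM and 0.098, 0.395 and 0.102 FPKM. Cps1, an enzyme of the urea cycle, was at 0.299, 3.17 and 0.194 FPKM and 0.155, 0.446 and 0.132 FPKM, and Bhmt, the betaine enzyme of homocysteine methylation, at 0.139, 1.59 and 0.138 FPKM and 0.0374, 0 and 0.195 FPKM. In each of the 5 genes Con 2 was highest. The Mup genes are near copies of each other, so their reads are uncertain. Where the liver RNA came from was not tested.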
